A study of Drosophila melanogaster with 5 samples.

Results

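Voltage-gated ion channels were followed in whole larvae of the third instar that lack most of CG1603, the gene of the architectural protein Mzfp1. The 10 genes examined were taken by FlyBase symbol from the 17735 gene identifiers counted, and all 10 had enough reads to be tested. They encode the sodium channel para, the calcium channel cac, the potassium channels Sh, Shab, Shal, Shaw, eag, sei and slo, and the cation channel Ih. Poly(A) RNA-seq had been made from 3 libraries of CG1603attP larvae and 2 libraries of y1w1118 larvae, each described in the study as a biological replicate. The y1w1118 line carries the y1 and w1118 alleles and served as wild type. The mutant larvae were homozygous for the CG1603attP deletion in the y1w1118 background and were offspring of flies carrying it over CyO GFP. An attP site and a 3P3:dsRed reporter with loxP sites replace the deleted part of the gene, so all mutant larvae come from 1 engineered allele. Such larvae die in the second or the third instar. Larvae were pooled by weight, and neither sex nor age within the instar is given in the labels.

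Voltage-gated channels open when the membrane potential changes and let a selected ion through. In Drosophila, para carries the sodium current of action potentials, cac admits the calcium that triggers transmitter release at synapses, and the potassium channels end the action potential or set its threshold and frequency. The families named after Shaker were first cloned in this fly. Neurons of the larval brain, ventral nerve cord and sense organs use all of these families, and larval body wall muscle uses several of the potassium channels. In whole larvae the reads of a gene are summed over all tissues, so fewer cells of a type and less RNA per cell cannot be told apart.

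CG1603 itself had 0, 0 and 3 reads in CG1603attP replicates 1, 2 and 3, against 124 and 102 reads in y1w1118 replicates 1 and 2 (adjusted p = 0.00445, edgeR). Between 9044930 and 14514277 reads on genes remained per library after ribosomal RNA genes were left out. Levels are stated in CPM (read counts scaled to a common library size with TMM factors), and 1 read was worth between 0.0668 and 0.116 CPM. The channel genes had between 24 reads (sei in y1w1118 replicate 1) and 4082 reads (para in CG1603attP replicate 2). Log2 fold changes, with their standard errors (SE), are those of CG1603attP against y1w1118 from edgeR's quasi-likelihood test, and a gene was called when its Benjamini-Hochberg adjusted p over all 11045 genes tested was under 0.05. CG1603attP replicate 1 and y1w1118 replicate 2 stood apart from the other libraries in the cuticle gene TwdlM, which had 872 and 592 CPM in these and between 1.67 and 9.85 CPM in the others, so the channel counts are also given without them.

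Of the 10 channel genes, 5 were higher in CG1603attP larvae, namely Shab, Shaw, eag, slo and cac, and 0 were lower (edgeR; before adjustment, p was under 0.05 for 6 higher genes and 1 lower). DESeq2 called the same 5 higher and 1 lower, Ih. Among all genes tested, 14.6% were called higher and 15.7% lower with edgeR, and 18.3% higher and 18.4% lower with DESeq2. The fitted level was above wild type in 9 of the 10 genes, with Ih as the exception, and the median log2 fold change of the 10 was 0.57, against -0.011 over all genes tested. Every mutant library lay above every wild-type library in 7 channel genes, which is true of 28.9% of all genes, and below in 1, which is true of 30.8%. Without CG1603attP replicate 1 and y1w1118 replicate 2, which left 1 wild-type library, 9 of the 10 log2 fold changes were still above 0.

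**Figure D1:**
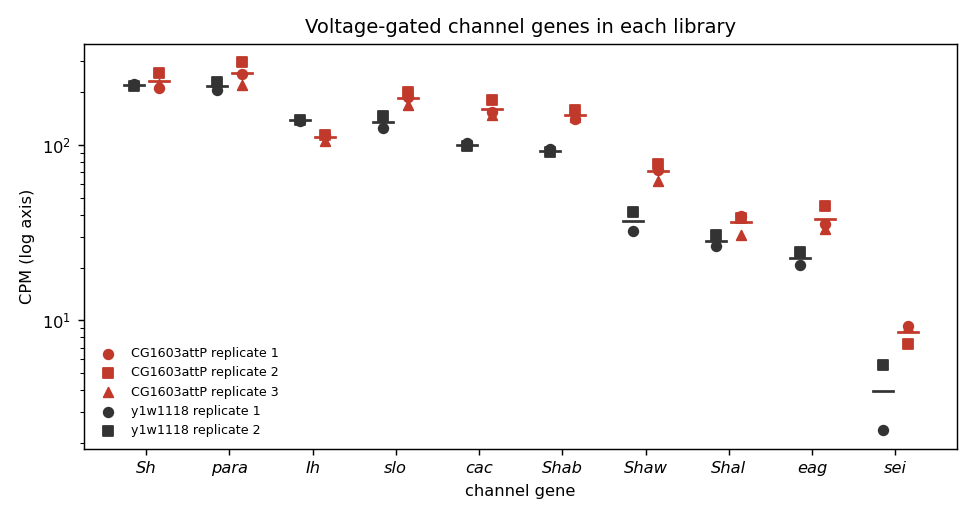
CPM (log axis) of each channel gene in the 2 y1w1118 libraries (black) and the 3 CG1603attP libraries (red), with the group means as short lines. Shab, Shaw, eag, slo and cac, and also Shal and sei, have all red points above the black ones, Ih has them below, and para and Sh overlap.

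The sodium channel gene para (FBgn0285944; X, 16455027 to 16533096, minus strand) spreads 34 merged exons and 60 annotated transcripts over 78070 bp. Its level was 255, 297 and 222 CPM in CG1603attP replicates 1, 2 and 3 and 207 and 229 CPM in y1w1118 replicates 1 and 2. The groups overlapped, since mutant replicate 3 lay below wild-type replicate 2. The fitted difference on the log2 scale was 0.24 (SE 0.15, adjusted p = 0.272) and was not called. The calcium channel gene cac (FBgn0263111; X, 11931280 to 11985087, minus strand) encodes the pore of the Cav2-type channel of presynaptic active zones. It stood at 155, 181 and 149 CPM in the mutant libraries and at 103 and 98.4 CPM in wild type. All mutant values were above both wild-type values, and cac rose 1.61-fold (log2 fold change 0.68, SE 0.13, adjusted p = 0.0101).

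Among the classical Shaker relatives the fold changes were unequal. Sh (FBgn0003380; X, 17924307 to 18063247, minus strand) encodes the Kv1 channel of the fast transient current in larval muscle and axons. Its levels were 211, 259 and 224 CPM in the mutant and 222 and 218 CPM in wild type. These values overlapped, with a log2 fold change of 0.07 (SE 0.12, adjusted p = 0.710). Shab (FBgn0262593; 3L, 2895017 to 2959579, plus strand), the Kv2 delayed rectifier, was at 141, 159.5 and 145 CPM in the mutant and 94.4 and 91.9 CPM in wild type. The lowest mutant library exceeded the highest wild-type library by far more than the spread within either genotype, and the rise was 1.59-fold (log2 fold change 0.67, SE 0.12, adjusted p = 0.00691). Shal (FBgn0005564; 3L, 19566851 to 19584568, minus strand), the Kv4 channel of the transient current in neuronal cell bodies, was at 39.5, 38.6 and 30.7 CPM against 26.4 and 30.6 CPM. Its lowest mutant value and highest wild-type value nearly touched, and the log2 fold change of 0.35 (SE 0.21) was not called (adjusted p = 0.257). Shaw (FBgn0003386; 2L, 3718185 to 3729145, plus strand) encodes a Kv3-family channel that does not inactivate. It had 72.3, 78.1 and 62.3 CPM in the mutant and 32.5 and 41.6 CPM in wild type. The groups did not overlap, and Shaw rose 1.91-fold (log2 fold change 0.94, SE 0.19, adjusted p = 0.0120), the largest called change of the 10 genes.

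The ether-a-go-go family has 2 members here. The founding gene eag (FBgn0000535; X, 14955477 to 15009989, plus strand) alone among the channel genes appears in the study's lists of promoters with an Mzfp1 site, as a gene in euchromatin with the motif. The study gives these lists with its binding data of embryos, and it found more sites in adult flies. Absence from the lists therefore does not show that a channel gene lacks a site in larvae. The level of eag was 35.7, 44.8 and 33.1 CPM in the mutant and 20.6 and 24.5 CPM in wild type. The mutant values lay above the wild-type ones, and eag rose 1.68-fold (log2 fold change 0.75, SE 0.22, adjusted p = 0.0445). The ERG-type gene sei (FBgn0003353; 2R, 24047411 to 24053035, plus strand), whose mutants seize on heating, had 9.28, 7.34 and 9.11 CPM in the mutant and 2.36 and 5.57 CPM in wild type. The groups did not overlap, but the wild-type libraries also lay far apart, and the gene was not called (log2 fold change 1.12, SE 0.46, adjusted p = 0.118).

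The counts of sei also depend on its neighbours. Its exons share 359 bp with gammaSnap1 and 119 bp with ppk29, both on the opposite strand, or 11.0% and 3.63% of its 3278 bp. The library kit did not keep strand and the unstranded column sets reads over both genes aside. For sei the stranded columns together held between 3.21 and 7.29 times the unstranded reads, against at most 1.03 times for the other channel genes. The first stranded column gave sei a log2 fold change of 0.97 (adjusted p = 0.0285) and the second 0.83 (adjusted p = 0.0484), both past the threshold in edgeR. Both neighbours also had more unstranded reads in every mutant library, with 160, 167 and 126 against 55 and 60 for gammaSnap1 and 59, 42 and 42 against 2 and 4 for ppk29. Reads of sei and of these neighbours on the shared stretches cannot be told apart in the stranded columns.

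Calcium-activated and hyperpolarization-activated channels gave opposite signs. The BK channel encoded by slo (FBgn0003429; 3R, 24662491 to 24711595, plus strand) opens on depolarization together with calcium and works in neurons and muscle. The gene measured 189, 202 and 169 CPM in the mutant and 126 and 146 CPM in wild type. The mutant libraries were all above the wild-type ones, and slo rose 1.37-fold, the smallest called change (log2 fold change 0.46, SE 0.13, adjusted p = 0.0430). The HCN channel gene Ih (FBgn0263397; 2R, 14276130 to 14300095, plus strand), which carries an inward current at negative potentials, was at 115, 114 and 106 CPM in the mutant and at 138 and 139 CPM in wild type. Every mutant library lay below wild type, by 1.24-fold, and the log2 fold change of -0.31 (SE 0.11) was not called by edgeR (adjusted p = 0.0745) and was called by DESeq2 (adjusted p = 0.0416).

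The calls held unequally well. Over 18 alternative settings, Shaw was called in 17, Shab and cac in 15 each, and eag and slo in 11 each, always in the same direction. Leaving out y1w1118 replicate 1 ended all 5 calls (adjusted p from 0.0796 to 0.332, edgeR) and left 1 wild-type library, whose spread had to be taken from the mutant. Without y1w1118 replicate 2, Shaw was called (adjusted p = 0.0450) and the others were not. Leaving out CG1603attP replicate 1 ended the calls of eag (adjusted p = 0.0688) and slo (adjusted p = 0.0941), as did leaving out CG1603attP replicate 2 (adjusted p = 0.0719 for eag and 0.0776 for slo). No call was lost without CG1603attP replicate 3. Over the same 18 settings, Ih was called lower in 1, DESeq2, and its log2 fold change ran from -0.37 to -0.16.

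**Figure D2:**
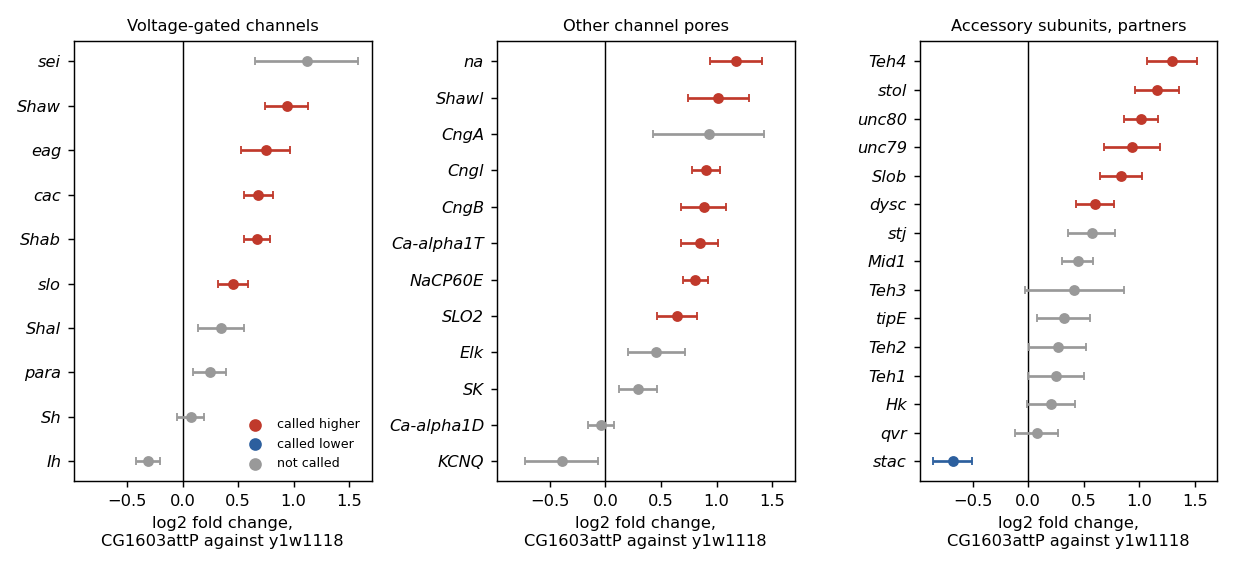
Log2 fold change of CG1603attP against y1w1118 with its standard error (bars) for the 10 voltage-gated channels, 12 other channel pore genes and 15 accessory or partner genes. Called genes are red (higher) or blue (lower), with 5, 7 and 6 red genes in the panels and stac as the only blue one.

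Levels of different genes were compared per kb of merged exons, as CPM per kb. In y1w1118 the highest were slo (13.4, range 12.4 to 14.4 over 2 libraries) and para (13.4, range 12.7 to 14.0), whose ranges overlapped. They were followed by Ih (10.9), Sh (9.65), cac (8.45), Shab (8.20), Shaw (7.41), Shal (6.19), eag (2.12) and sei (1.21). In that order cac and Shab, Shab and Shaw, and Shaw and Shal overlapped between libraries, and the other neighbours below para did not. In CG1603attP slo (18.4) and para (15.8) again had the highest means. Shaw (14.2), cac (13.6) and Shab (13.1) came next, ahead of Sh (10.1), Ih (8.78), Shal (7.87), eag (3.56) and sei (2.62). The mutant ranges of slo, para, Shaw, cac and Shab overlapped, each with the next, so their order is not resolved. Neither is that of Ih and Shal. By the means, Ih stood at rank 3 in wild type and rank 7 in the mutant, and Shaw at rank 7 and rank 3. With coding length in place of all exons the order changed, Sh having 22801 bp of exons and 3063 bp of coding sequence. Sh was then first in both genotypes, Ih moved from rank 2 to rank 6, and Shaw from rank 5 to rank 4. Among 10956 annotated genes tested, the wild-type level per kb of the channel genes lay between percentile 10.1 (sei) and percentile 60.4 (slo).

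**Figure D3:**
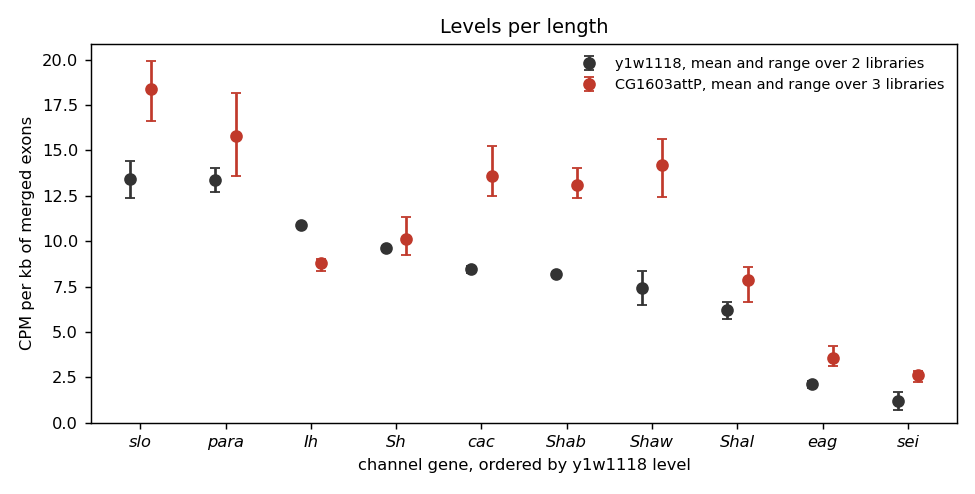
Mean CPM per kb of merged exons for each channel gene in y1w1118 (black) and CG1603attP (red), ordered by the wild-type level, with bars from the lowest to the highest library. Ih moved from 10.9 to 8.78 and Shaw from 7.41 to 14.2, while slo and para had the highest means in both genotypes. The mutant ranges of slo and para overlapped, as did those of para and Shaw.

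The share of each gene in the summed CPM per kb of the 10 channels does not depend on how libraries are scaled. Ih took 14.0% and 12.9% of the sum in the wild-type libraries and 8.41%, 7.59% and 8.47% in the mutant libraries, without overlap. Sh took 12.6% and 11.3% against 8.63%, 9.61% and 9.95%, and para 16.4% and 16.7% against 14.6%, 15.4% and 13.8%, both also without overlap. A share falls when the other genes of the sum rise, so a lower share is not a lower level. In CPM, para and Sh overlapped between the genotypes, with log2 fold changes of 0.24 and 0.07. The shares of Shaw (8.38% and 9.89% against 13.5%, 13.2% and 12.6%), Shab, cac and eag were higher in every mutant library than in wild type. The shares of slo, Shal and sei overlapped between the genotypes. Since the shares of a library have a fixed sum, higher shares of some genes force lower shares of others. How often shares would not overlap for other genes was not counted. In CPM, every mutant library lay above every wild-type library in 28.9% of all genes and below in 30.8%.

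Other channel pore genes, from a list of voltage-gated, calcium-activated and cyclic-nucleotide-gated channels, were mostly on the same side. Of 12 tested, 7 were higher and 0 lower with edgeR, and DESeq2 called as many. Over all genes tested, 14.6% were called higher and 15.7% lower with edgeR, and 18.3% and 18.4% with DESeq2. Before adjustment, edgeR's p was under 0.05 for the same counts of the 12, whose median log2 fold change was 0.83. Cngl, a cyclic-nucleotide-gated channel gene, rose from 57.1 and 57.1 CPM in wild type to 107, 102 and 112 CPM (log2 fold change 0.90, adjusted p = 0.00283). NaCP60E, the second sodium-channel-like gene of the fly, rose from 111 and 115 to 187, 197 and 209 CPM (log2 fold change 0.81, adjusted p = 0.00286). The leak channel gene na had 32.7 and 21.1 CPM in wild type and 65.4, 57.2 and 59.8 CPM in the mutant (log2 fold change 1.17, adjusted p = 0.0109). The T-type calcium channel gene Ca-alpha1T rose by a log2 fold change of 0.85 (adjusted p = 0.0116), whereas the L-type gene Ca-alpha1D, which larval muscle uses, was at 136 and 140.1 CPM in wild type and 124, 140.4 and 139 CPM in the mutant (log2 fold change -0.04, adjusted p = 0.834). Shawl, SLO2 and CngB were the other called genes. KCNQ had the lowest value of the list, a log2 fold change of -0.39 (adjusted p = 0.415), with overlapping libraries. Without CG1603attP replicate 1 and y1w1118 replicate 2, 0 of the 12 were called, against 5.32% higher over all genes in that fit.

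Accessory subunits were read beside the pores they serve. Of 15 tested, 6 were higher and 1 lower, against 14.6% and 15.7% of all genes. The median log2 fold change of the 15 was 0.44. The lowest adjusted p among higher genes belonged to unc80 (log2 fold change 1.01, adjusted p = 0.00406), Teh4 (1.29, adjusted p = 0.00715), stol (1.15, adjusted p = 0.00665) and Slob (0.83, adjusted p = 0.0184). Proteins encoded by unc79 and unc80 work with the na channel, and Mid1 is needed for its localisation. The values of unc79 (log2 fold change 0.93, adjusted p = 0.0332) and Mid1 (0.44, adjusted p = 0.0561), named here after they were seen, were on the same side as those of na and unc80. For slo, the binding partner Slob and the regulator dysc (0.60, adjusted p = 0.0376) were also higher. The Shaker partners Hk (0.20, adjusted p = 0.532) and qvr (0.07, adjusted p = 0.812) were not called, and neither was Sh. Of the para auxiliary subunits, Teh4 rose from 11.3 and 13.2 CPM to 26.9, 34.6 and 28.4 CPM, and tipE, Teh1, Teh2 and Teh3 had log2 fold changes between 0.25 and 0.41 that were not called. Of the alpha2-delta subunits of calcium channels, stol was called and stj (0.57, adjusted p = 0.0902) was not. The single lower gene was stac, an adaptor of L-type calcium channels, at 87.5 and 106 CPM in wild type and 64.0, 67.0 and 50.5 CPM in the mutant (log2 fold change -0.68, adjusted p = 0.0288). Without CG1603attP replicate 1 and y1w1118 replicate 2, 2 of the list were called higher. The call of stac was lost there, and it was lost as well with scaling by library size only, with the first stranded column, with the replicate number as a block, and without CG1603attP replicate 1, CG1603attP replicate 3 or either y1w1118 replicate.

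Of 14 potassium channels of the inwardly rectifying and two-pore classes, 1 was called higher and 3 lower, against 14.6% and 15.7% of all genes. The lower genes were the two-pore channel galene, which went from 26.5 and 23.1 CPM to 6.28, 7.05 and 5.93 CPM (log2 fold change -1.95, adjusted p = 0.00166), CG34396 (-1.20, adjusted p = 0.00761) and the inward rectifier Irk2 (-0.60, adjusted p = 0.0136). CG42340 was higher (0.78, adjusted p = 0.0385). Without CG1603attP replicate 1 and y1w1118 replicate 2, 2 were lower and the higher one was no longer called. Ligand-gated channels were called on both sides too, with 4 of 21 higher and 3 lower, against the same shares of all genes. This list was planned as a whole, and its division below into GluRII and other subunits was not part of the plan. All 5 GluRII subunits of the neuromuscular junction had negative log2 fold changes, with 3 called lower, GluRIIC (-1.72, adjusted p = 0.00699), GluRIID (-1.17, adjusted p = 0.00986) and GluRIIA (-1.01, adjusted p = 0.0391). The 16 other subunits tested, of receptors for acetylcholine, GABA and glutamate, all had positive log2 fold changes, with 4 called, Nmdar2 (1.11, adjusted p = 0.00406), nAChRalpha7 (1.01, adjusted p = 0.0107), KaiR1D (1.20, adjusted p = 0.0117) and GluClalpha (0.62, adjusted p = 0.0296). The number of ligand-gated genes called higher was 8 with DESeq2, 7 when libraries were scaled by size only and 1 without CG1603attP replicate 1 and y1w1118 replicate 2, where 1 was lower.

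RNA-binding and RNA-editing regulators of channel transcripts gave no call in either direction among 7 tested with edgeR (before adjustment, p was under 0.05 for 1 lower gene and 0 higher ones, and DESeq2 called 1 lower and 0 higher). Adar, which edits para, Sh and cac transcripts, was at 57.7, 72.6 and 73.5 CPM in the mutant and 61.0 and 60.3 CPM in wild type, and the libraries overlapped.

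Neuronal markers were also called in 1 direction. All 20 were detected and tested, 7 were higher, 13 were not called and 0 were lower with edgeR. Over all genes tested, 14.6% were called higher and 15.7% lower with edgeR, and 18.3% and 18.4% with DESeq2. Before adjustment, edgeR's p was under 0.05 for 13 higher and 0 lower neuronal markers, and DESeq2 called 10 and 0. The median log2 fold change of the 20 markers was 0.42, with 17 of the 20 above 0. Of the 3 most abundant, futsch (0.48, adjusted p = 0.0195) and unc-13 (0.85, adjusted p = 0.00876) were higher and nrv3 was not called (-0.41, adjusted p = 0.128). Their summed level ran from 3399 to 4020 CPM in the mutant libraries and from 2772 to 2871 CPM in wild type. Markers of body wall muscle moved the other way: 14 of 14 were lower, among them Mhc (-1.78, adjusted p = 0.00185), bt (-2.40, adjusted p = 0.00108) and Act57B (-1.80, adjusted p = 0.00107), and the summed level ran from 21738 to 28166 CPM in the mutant and from 83610 to 90795 CPM in wild type. Without CG1603attP replicate 1 and y1w1118 replicate 2, 2 neuronal markers were higher and 14 muscle markers lower, and with scaling by library size only 12 neuronal markers were higher. The part of these tissues in the channel values was not tested.

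**Figure D4:**
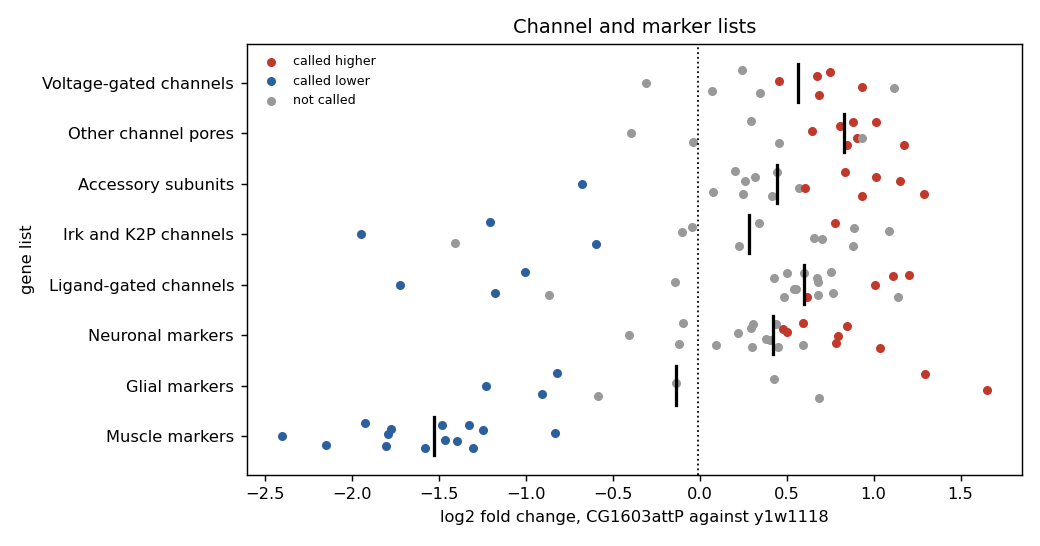
Log2 fold change of CG1603attP against y1w1118 for each tested gene of 8 lists (points; red called higher, blue called lower, grey not called), with the list median as a black bar and the median of all genes tested as a dotted line. The voltage-gated channels have a median of 0.57, neuronal markers 0.42 and muscle markers -1.53, against -0.011 over all genes.

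Glial markers were mixed, with 2 of 9 higher and 3 lower, against 14.6% and 15.7% of all genes. The same shares of all genes stand beside the neuroblast, fat body, midgut and cuticle counts below. Gli (1.30, adjusted p = 0.000743, edgeR) and repo (1.65, adjusted p = 0.0132) were higher. Gs2 (-1.23, adjusted p = 0.00166), nrv2 (-0.90, adjusted p = 0.0184) and axo (-0.82, adjusted p = 0.0121) were lower. The list's summed level was 801 to 937 CPM in the mutant and 1411 to 1481 CPM in wild type. Of this sum, Gs2 alone made up 402 to 519 CPM in the mutant and 1009 to 1095 CPM in wild type. Of 6 neuroblast markers, 1 was higher, pros (0.93, adjusted p = 0.00492), and 0 were lower with edgeR (before adjustment, p was under 0.05 for 2 lower genes and 1 higher, and DESeq2 called 1 lower). The other 5 were not called, with log2 fold changes of 0.54 for insc, -0.39 for mira, -0.93 for ase, -1.54 for wor and -3.76 for dpn, which had at most 2.20 CPM in any library. The list median was -0.66. The summed level of these markers was 119 to 132 CPM in the mutant against 83.0 to 86.9 CPM, of which pros made up 86.8 to 103 CPM and 47.2 to 49.5 CPM. In the fat body list 1 of 4 tested genes was lower, the lipophorin gene apolpp (-2.31, adjusted p = 0.00228), which held nearly all reads of that list. Lsp1gamma and Lsp1beta, the next genes, stayed under 10 CPM in every library. In the midgut list 4 of 6 were higher, among them Jon65Aiv (1.73, adjusted p = 0.00173), alphaTry (5.08, adjusted p = 0.000196) and betaTry (1.79, adjusted p = 0.0103). Of the cuticle list, 2 of 4 tested genes were lower, Lcp4 and Lcp3, the second with no reads in the mutant.

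Set against the summed neuronal markers of the same library, the summed channel levels overlapped between the genotypes. The 10 genes together made 353, 343.5 and 338 CPM per 1000 CPM of neuronal markers in the mutant libraries and 351 and 357 in wild type. Single genes did not follow this. Shaw had 20.9, 19.4 and 18.3 CPM per 1000 CPM of neuronal markers in the mutant against 11.7 and 14.5, and Shab 40.6, 39.7 and 42.8 against 34.1 and 32.0. By the same measure cac had 44.8, 45.1 and 43.8 against 37.2 and 34.3, and eag 10.3, 11.1 and 9.75 against 7.44 and 8.52. Ih was lower in every mutant library, at 33.1, 28.4 and 31.2 against 49.8 and 48.2, as were Sh, at 60.9, 64.3 and 65.9 against 80.1 and 75.9, and para, at 73.7, 73.8 and 65.2 against 74.6 and 79.7. Relative to neuronal markers slo, Shal and sei overlapped between the genotypes. These ratios are a description and depend on the 20 markers listed. The marker sum was itself higher in every mutant library, at 3399 to 4020 CPM against 2772 to 2871 CPM. This lowers the ratio of any gene whose CPM does not rise, and para and Sh overlapped between the genotypes in CPM. The share of all genes without overlap on this scale was not counted.

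**Figure D5:**
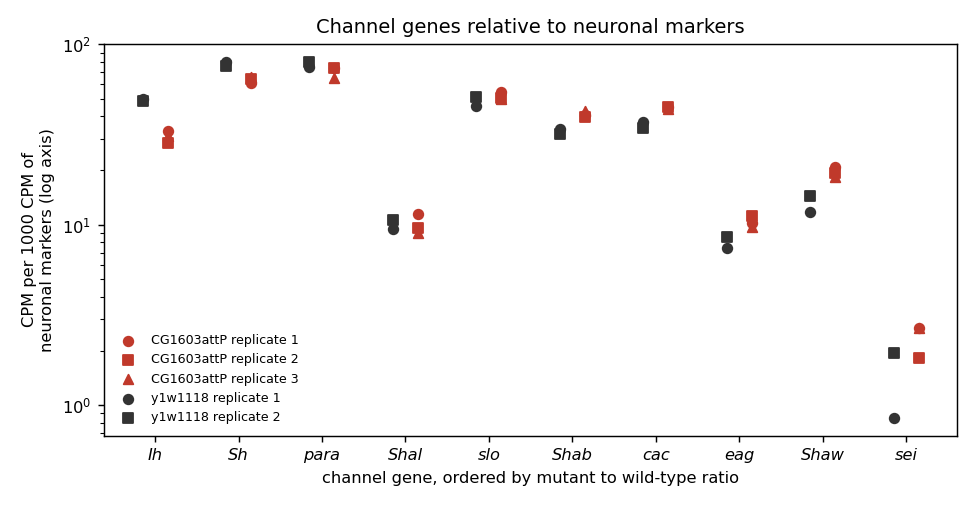
CPM of each channel gene per 1000 CPM of the 20 neuronal markers summed (log axis) in each library, ordered by the ratio of the genotype means, with y1w1118 in black and CG1603attP in red. Ih, Sh and para lie lower in all mutant libraries, cac, Shab, eag and Shaw higher, and Shal, slo and sei overlap. In plain CPM, Sh and para overlap between the genotypes.

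The channel genes share a large size. Their genes span between 5625 bp (sei) and 138941 bp (Sh), with a median of 51456 bp against 2581 bp for the annotated genes tested, and when genes were divided by span into 5 bins of equal size, 9 of the 10 lay in the bin of the longest. In that bin 22.1% of the genes were called higher and 14.0% lower, against 10.2% and 16.7% in the bin of the shortest. Other counted genes lie within the spans of para, Sh and Shab without sharing exon bases with them. On X, which holds para, Sh, eag and cac, the median log2 fold change over 1744 genes was 0.13, with 16.3% higher and 11.2% lower. The part of gene length and of chromosome in the channel values was not tested.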

How the data were processed

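Third-instar larvae of y1w1118 and CG1603attP were profiled by poly(A) RNA-seq. After trimming of adapters (cutadapt) and low-quality ends (sickle), the authors mapped reads with STAR on dm6, and the deposited counts per gene are STAR's own, not normalized. Which versions and annotation were used is not given in the sources used here. The 4 summary lines (unmapped 23.8% to 30.0%, multimapping 5.58% to 10.6%, no feature 4.15% to 6.22%, ambiguous 3.28% to 6.26% of reads) and 138 ribosomal RNA genes were left out. The 10 members and all lists were chosen with earlier results of these data known. Symbols came from the gene table, and positions and exon lengths from the Ensembl annotation of dm6. Of the listed genes, Ca-beta was not matched. Genes listed under 2 names were counted once.

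Unstranded counts were compared in R 4.3.3 with edgeR 4.0.16: filterByExpr (minimum count 10, minimum total 15), TMM, estimateDisp, glmQLFit in legacy form and glmQLFTest, following the study's methods where these are stated. Standard errors were derived from the F statistic (fold change on the log2 scale over root F). The estimated common dispersion was 0.141. The small number of libraries limits the precision, and for sei the low number of reads does as well. The fit was tested on simulated data. Alternatives were DESeq2 1.42.0, other quasi-likelihood fits, scalings, filters and count columns, the replicate block, and libraries left out. All 10 members are named. Of the other channel lists, called genes were named up to the 4 with the lowest adjusted p in each direction, and of each marker list the 3 most abundant; further names were chosen after their values were seen. No sequence was analysed here.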

Additional observations from a re-analysis of the deposited data

How the results depend on the processing

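None of the 180 log2 fold changes of channel genes under the 18 alternatives reversed, and 156 kept their side of the threshold. The number of channel genes called higher was 3 without a filter on low counts, where eag (adjusted p = 0.0509) and slo (adjusted p = 0.0508) missed the threshold, and from 0 to 5 with 1 library left out. The second stranded column also ended the calls of eag (adjusted p = 0.107) and slo (adjusted p = 0.0590). It was 1 with CG1603attP replicate 1 and y1w1118 replicate 2 both left out. DESeq2 raised the number called lower from 0 to 1. Over all genes 3353 were called, from 1410 to 3540 with 1 library left out and 1599 without both of those libraries. Fewer libraries leave fewer degrees of freedom, and with 1 wild-type library its spread is assumed to equal that of the mutant. Scaling by library size only moved the median of all genes by 0.144 on the log2 scale and the split from 1618 higher and 1735 lower to 2080 and 1424, with the same 5 channel genes called. With the replicate number as a block, 2967 genes and the same 5 channel genes were called. Replicate numbers share no stated batch. Deviations of same-numbered libraries from their group means correlated at -0.47 (replicate 1) and -0.24 (replicate 2) over 11045 genes. Those of CG1603attP replicate 1 and y1w1118 replicate 2 correlated at 0.47. The deviations of the 2 wild-type libraries mirror each other, so these values cannot decide whether same-numbered libraries share a batch. The low reads of sei limit its value.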
